A study of Mus musculus with 34 samples.

Results

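The 10 genes described here, Cx3cr1, Csf1r, P2ry12, Aif1, Tmem119, Trem2, C1qa, C1qb, C1qc and Itgam, are commonly used as markers of microglia, the resident macrophages of the brain. They were chosen by name and matched to the array through the RefSeq accession of each probe, which gave 15 of the 55681 probes that are not controls. Csf1r and Itgam have 3 probes each, Cx3cr1 has 2 and each of the other 7 genes has 1. All 10 genes had a probe that was well above background in all 34 fractions, and that probe stands for its gene below unless another is named.

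RNA was measured along the coronal, horizontal and sagittal axes of the brain of the newborn mouse. The brains came from 3 male C57BL/6J mice, 3 days after birth, raised free of pathogens and with no treatment or altered gene named in the labels. Mouse 1 gave 15 coronal fractions, mouse 2 gave 8 horizontal fractions and mouse 3 gave 11 sagittal fractions, each made of slices 500 μm thick in total except sagittal fractions 1 and 11, which pool 2 such cuts. There was 1 single-colour array for each fraction, so no position has a replicate, and plane and mouse cannot be told apart. The end from which the fractions are counted is not given in the labels.

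Microglia settle in the brain before birth and live on signals through the receptor encoded by Csf1r, whose ligands are the products of Csf1 and Il34. They follow the neuronal chemokine Cx3cl1 through Cx3cr1, sense nucleotides through P2ry12, and make most of the complement component C1q of the brain, which can mark synapses for removal. Aif1 encodes the calcium-binding protein Iba1, Tmem119 a membrane protein used to tell microglia from other macrophages, Trem2 a lipid-sensing receptor, and Itgam an integrin chain that binds complement. Macrophages at the borders of the brain, in the meninges and around vessels, share several of these genes, among them Csf1r and the C1q genes.

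Values are log2 normalized signals, that is, the log2 of a probe's signal less the log2 of the 75th percentile of its array, so that a difference of 1 is a 2-fold change. Arrays had 29598 to 37091 of 59305 gene spots well above background, the log2 of the 75th percentile lay between 8.07 and 9.18, and repeat spots of a probe had a median SD of 0.0579 to 0.107. Levels of different probes are not compared. In RNA of whole fractions, fewer cells of a type and less RNA per cell cannot be told apart. The tissue label holds: 8 of 8 neuron genes and 8 of 8 astrocyte genes were detected in at least 1 fraction of every series. Of the genes that mark brain regions, all 4 of the olfactory bulb were highest in coronal fraction 15 (18.7% of all probes). All 4 of the cortex were highest in sagittal fraction 1 (27.5%). Not every list was as uniform in each series, as the cortex genes peaked in coronal fraction 13 or 15.

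The 3 C1q genes encode the chains of 1 protein and lie side by side on chromosome 4 within 18719 bases of the GRCm38 assembly, with C1qb at chr4:136880126-136886200, C1qc at chr4:136889801-136892936 and C1qa at chr4:136895916-136898844. P2ry12 lies at chr3:59216271-59262985, Cx3cr1 at chr9:120048683-120068296, Trem2 at chr17:48346401-48352276, Aif1 at chr17:35170986-35176083, Tmem119 at chr5:113793729-113800396 and Itgam at chr7:128062640-128118491. RefSeq sequences of the 250 bases before a start of transcription were at hand for 7 of the 10 genes. The start used there lies inside the gene as given above for C1qc and Aif1, so that their windows overlap it, and at its edge for the other 5. They were searched on both strands for GGAAGT, a core to which factors of the ETS family such as the macrophage factor encoded by Spi1 can bind, and for the longer GAGGAAGT, which contains it. GGAAGT or its reverse complement ACTTCC was present in 3 of the 7, and in 19.7% of 32851 such windows. The 3 are shown 5′ to 3′ on the strand of the gene, with the match in capitals, because C1qb and C1qc belong to the set of genes that moved together most closely below and P2ry12, with the same letters, went another way.
C1qb (chr4:136886201-136886450, minus strand): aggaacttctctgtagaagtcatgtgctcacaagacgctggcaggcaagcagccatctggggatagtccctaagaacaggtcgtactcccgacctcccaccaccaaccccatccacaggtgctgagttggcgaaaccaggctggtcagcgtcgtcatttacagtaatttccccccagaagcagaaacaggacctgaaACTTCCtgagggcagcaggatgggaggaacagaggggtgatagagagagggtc
C1qc (chr4:136892915-136893164, minus strand): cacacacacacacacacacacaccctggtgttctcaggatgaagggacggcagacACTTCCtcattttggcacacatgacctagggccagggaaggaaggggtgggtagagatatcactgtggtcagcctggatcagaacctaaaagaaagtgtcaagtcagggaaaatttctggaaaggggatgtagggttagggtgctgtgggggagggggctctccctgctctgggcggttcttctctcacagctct
P2ry12 (chr3:59262986-59263235, minus strand): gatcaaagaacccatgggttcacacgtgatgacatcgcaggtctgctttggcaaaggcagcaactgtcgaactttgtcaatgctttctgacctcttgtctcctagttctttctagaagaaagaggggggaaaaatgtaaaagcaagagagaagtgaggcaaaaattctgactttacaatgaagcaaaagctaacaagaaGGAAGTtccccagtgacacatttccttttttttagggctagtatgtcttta
The match began 53 bases before the start used for the window in C1qb, 195 in C1qc and 51 in P2ry12. Only the window of C1qc held the longer GAGGAAGT, on the reverse strand, which was present in 2.44% of the windows. The windows of Cx3cr1, Trem2, Aif1 and Itgam held neither. These matches describe the letters and not the binding of a factor.

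**Figure D1:**
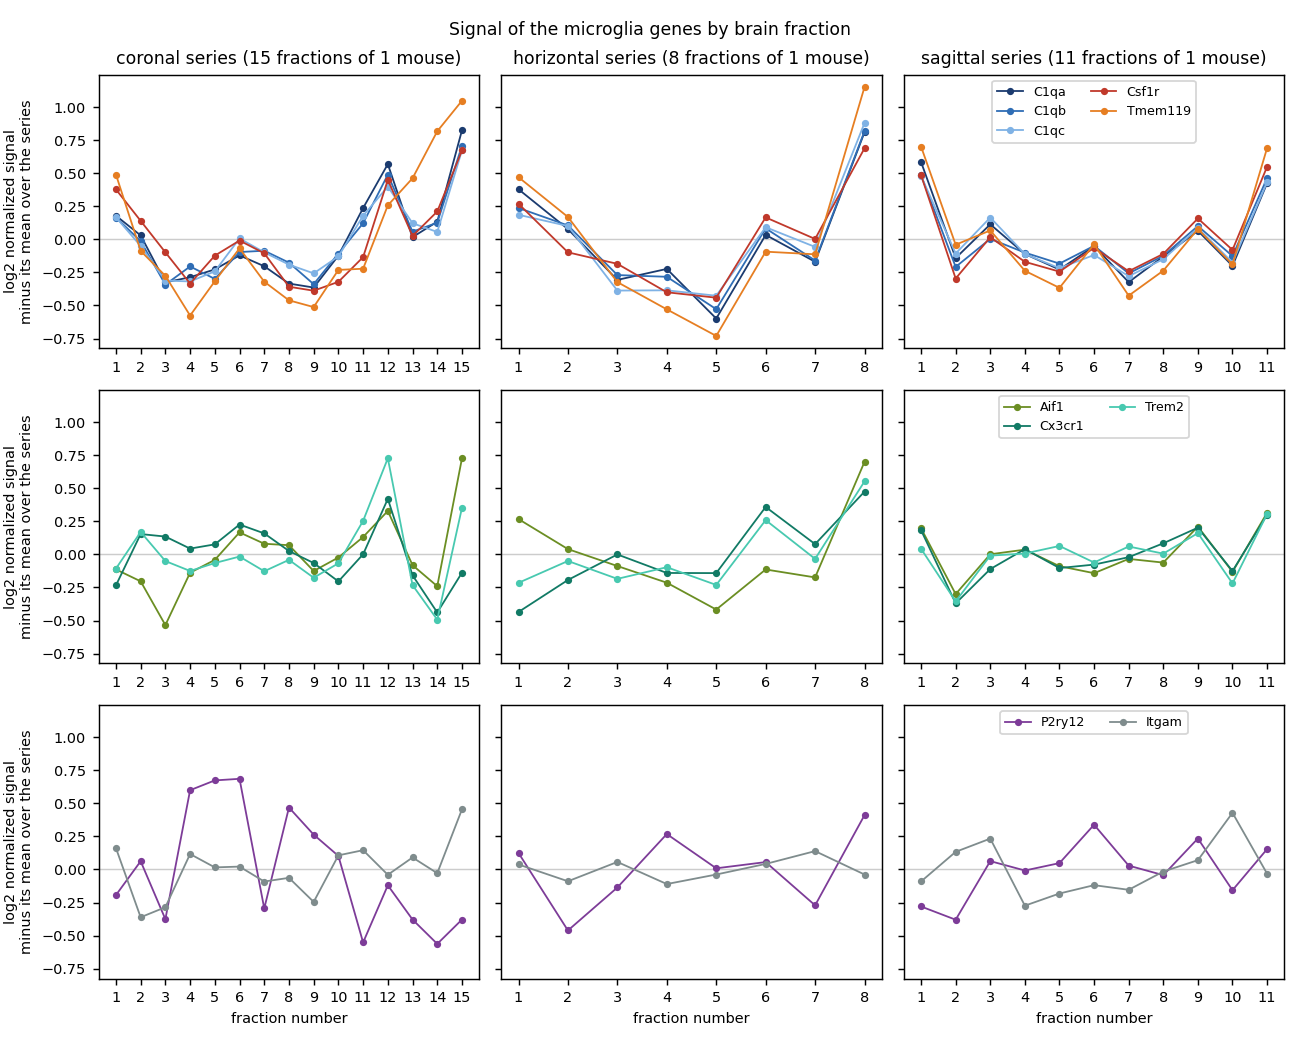
Signal of each gene by fraction number (x axis) as the log2 normalized signal less its mean over the series (y axis), with the coronal, horizontal and sagittal series in columns and 1 point for each array. The C1q genes, Csf1r and Tmem119 (top row) lie above the median of the inner fractions at both ends of each series, Cx3cr1 and Trem2 (middle row) peak in coronal fraction 12, P2ry12 (bottom row) follows neither, and Itgam (bottom row) has both ends raised in the coronal series and not in the others.

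The 3 C1q genes were highest in the outermost fractions of all 3 brains. C1qa ran from 1.03 in coronal fraction 9 through a median of 1.28 to 2.22 in coronal fraction 15, a 2.28-fold range. It was at 1.58 in coronal fraction 1 and reached 1.97 in coronal fraction 12, above every other inner fraction of that series. In the horizontal series C1qa ran from 0.73 in fraction 5 through a median of 1.26 to 2.14 in fraction 8, with 1.71 in fraction 1, and in the sagittal series from 0.99 in fraction 7 through a median of 1.20 to 1.90 in fraction 1, with 1.74 in fraction 11. C1qb and C1qc had their highest values in the same 3 fractions as C1qa. C1qb ranged 2.07-fold, 2.54-fold and 1.67-fold over the coronal, horizontal and sagittal series, and C1qc 1.99-fold, 2.47-fold and 1.69-fold. In the coronal series 48.9%, 59.6% and 63.8% of all probes had a larger SD than C1qa, C1qb and C1qc. The coronal spread of these genes was thus ordinary. In the horizontal series the shares were 24.4%, 26.7% and 24.8%, and in the sagittal 36.4%, 41.3% and 40.6%.

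Csf1r and Tmem119 shared these high ends. Csf1r lay between 3.82 and 4.88 in the coronal series, with a median of 4.11, and its end fractions 1 and 15 were at 4.58 and 4.88. It was at 4.35 and 4.77 at the ends of the horizontal series, where its inner fractions lay between 3.64 and 4.25, and at 4.67 and 4.73 at the ends of the sagittal series, where its inner fractions lay between 3.89 and 4.34. In those 2 series the ends and the inner fractions of Csf1r thus did not overlap. Over the coronal, horizontal and sagittal series 54.7%, 31.5% and 35.4% of all probes had a larger SD than Csf1r. Tmem119 varied most of the 10 genes in each series, by 3.08-fold, 3.69-fold and 2.18-fold. A larger SD than that of Tmem119 was found for 27.6%, 13.6% and 23.8% of all probes. Its coronal values fell to -0.29 in fraction 4, had a median of 0.06 and climbed over fractions 12 to 15 to 1.33, its horizontal values ran from -0.47 in fraction 5 through a median of 0.16 to 1.42 in fraction 8, and its sagittal ends, at 0.93 and 0.92, lay above all inner fractions, of which the highest was 0.31.

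Counted over the 10 genes, both end fractions lay above the median of the inner fractions for 6 genes in the coronal series, 7 in the horizontal and 8 in the sagittal, against 34.8%, 30.4% and 44.2% of the 34186 probes detected in all 3 series. Both ends lay above every inner fraction for 1, 6 and 5 genes, against 4.52%, 4.82% and 20.1% of those probes. The 1 coronal gene was Itgam, whose lower end, at 4.749, was little above its highest inner value of 4.733, and whose probes disagree (below). The 6 horizontal genes were C1qa, C1qb, C1qc, Csf1r, Tmem119 and Aif1, and the 5 sagittal genes were the same without Aif1. The mean of the ends exceeded the inner median by a median over the 10 genes of 0.43, 0.62 and 0.45 on the log2 scale in the 3 series, and over all those probes by 0.06, 0.01 and 0.05. The median SD over the fractions was 0.290, 0.359 and 0.233 for the 10 genes in the 3 series. Over all those probes the median SD was 0.339, 0.269 and 0.218. In the coronal series the 10 genes thus varied less than the typical probe. The single fraction in which a gene was highest was coronal 15 for 7 of 10 genes (18.7% of probes), horizontal 8 for 9 of 10 (11.4%), sagittal 1 for 4 (27.5%) and sagittal 11 for 4 others (11.2%). Cx3cr1 and Trem2 were highest in coronal fraction 12 (13.1% of probes), P2ry12 in coronal fraction 6 (2.2%) and sagittal fraction 6 (9.97%), and Itgam in horizontal fraction 7 (11.3%) and sagittal fraction 10 (7.47%). The ends of the coronal and horizontal series were hybridised on the slides that also held most of their inner fractions, whereas sagittal fractions 2 to 9 shared a slide, sagittal fraction 1 lay on another and sagittal fractions 10 and 11 on a further one. Coronal fraction 15 also had the lowest 75th percentile of the 34 arrays, at 8.07, and the part of slide and scaling in the high ends was not tested beyond the alternatives given with the tests.

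Cx3cr1 and Trem2 had less of this shape and followed each other. Cx3cr1 was highest in coronal fraction 12, at 3.46, with a median of 3.06 and its lowest value, 2.60, in fraction 14, and its coronal ends of 2.80 and 2.90 lay below the inner median of 3.08. Trem2 had the same highest and lowest coronal fractions, at 2.37 and 1.15, around a median of 1.58. In the horizontal series Cx3cr1 rose from 2.51 in fraction 1, its lowest, to 3.42 in fraction 8, its highest, with a median of 2.88, and Trem2 went from 1.27 in fraction 5 through a median of 1.43 to 2.05 in fraction 8. Both were lowest in sagittal fraction 2 and highest in sagittal fraction 11, at 2.61 and 3.28 for Cx3cr1 and 1.14 and 1.80 for Trem2. Coronal fraction 12 was the only coronal fraction on its slide, so its peak cannot be told apart from that slide. The second probe of Cx3cr1 was also highest in coronal fraction 12, at 0.49, but its r with the first was 0.44 over the coronal fractions, 0.74 over the horizontal and 0.77 over the sagittal. Unlike the first, it had both ends above the inner median in every series. The ends were 3e-06 and 0.064 against -0.078 in the coronal and -0.147 and 0.360 against -0.149 in the horizontal series. In the sagittal series they were 0.34 and 0.24, above every inner fraction. The sagittal ends of the first probe, at 3.17 and 3.28, also lay above its inner median of 2.90. Whether the ends of Cx3cr1 were raised thus depended on the probe in the coronal and horizontal series, but not in the sagittal.

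Aif1 stood between both shapes. It ran from 0.70 in coronal fraction 3 through a median of 1.19 to 1.96 in fraction 15, while coronal fraction 1, at 1.12, was not raised. In the horizontal series its ends, at 1.21 and 1.65, both lay above the highest inner value of 0.99. Its sagittal values lay between 0.84 in fraction 2 and 1.45 in fraction 11 around a median of 1.105.

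P2ry12 went another way in the coronal series. Its highest values were -0.92, -0.84 and -0.83 in fractions 4, 5 and 6 and -1.05 in fraction 8, around a median of -1.64, and its lowest was -2.08 in fraction 14, a 2.37-fold range. A larger coronal SD than that of P2ry12 was found for 33.5% of all probes. Its coronal ends, at -1.71 and -1.90, lay below the inner median of -1.45, unlike those of the C1q genes. Fraction 7, between high neighbours, was at -1.81, so the coronal curve was not smooth. In the horizontal series P2ry12 lay between -2.07 in fraction 2 and -1.20 in fraction 8, and in the sagittal series between -1.90 in fraction 2 and -1.18 in fraction 6, the middle fraction.

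The 3 probes of Itgam did not follow each other, and the gene is therefore uncertain. A_55_P1977934, which stands for the gene, ran from 4.23 in coronal fraction 2 to 5.04 in coronal fraction 15 and hardly moved over the horizontal series, from 4.11 to 4.36, where 98.7% of all probes had a larger SD. A_55_P1977929 was detected in all 34 fractions and peaked in coronal fraction 12. A_55_P1977926 was detected in 8 coronal, 3 horizontal and 7 sagittal fractions. The r between these probes lay between -0.58 and 0.24 over the 9 combinations of probe pair and series. The 3 probes of Csf1r, in contrast, had an r of 0.51 to 0.96 in each series, with the lowest values for A_55_P2025073.

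Whether a gene changed with position was asked by limma, with Benjamini-Hochberg adjustment over 34186 probes and an adjusted p under 0.05 as the call. These tests compare positions within 1 brain, and their error is the scatter of single fractions about a line or curve. In the coronal series 6 of the 10 genes were called in the test of a smooth curve over position, beside 60.4% of all probes, so the count was near that share. The fitted curves spanned a median of 0.73 on the log2 scale over the 10 genes and 0.75 over all probes. The fitted curve of Tmem119 spanned 1.55 (adjusted p = 0.000102), that of C1qa 0.89 (adjusted p = 0.00953), that of C1qb 0.76 (adjusted p = 0.0115) and that of C1qc 0.69 (adjusted p = 0.0159), all on the log2 scale. Csf1r (0.85, adjusted p = 0.00729) and P2ry12 (0.93, adjusted p = 0.0276) were the other 2, while Cx3cr1, Trem2, Aif1 and Itgam had adjusted p-values of 0.352, 0.866, 0.218 and 0.295. Among the other probes of these genes, the Itgam probe A_55_P1977926 and the Csf1r probe A_52_P602091 were also called (adjusted p = 0.0127 and 0.00628), and the remaining 3 were not. The count was 4 with slide as a block, without P2ry12 and C1qc, and 2 without coronal fraction 15, P2ry12 and Tmem119. It was 1, Tmem119, when both end fractions were left out. P2ry12 was not called without any one of fractions 4, 5, 6, 13 and 14, whereas Cx3cr1 was called without fraction 12 and Aif1 without fraction 14.

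A straight trend along the coronal series was called for 0 of the 10 genes, beside 28.3% of all probes, 18.9% rising and 9.44% falling. The lowest adjusted p-values of the 10, 0.0703 to 0.0993, were those of C1qa, C1qb, C1qc, Tmem119 and Aif1. Their slopes were all rising, at 0.0347 to 0.0575 log2 per fraction. Without coronal fraction 1 the C1q genes and Tmem119 were called, and without fraction 14 Aif1 was. In the horizontal series 0 of 10 genes were called by the straight trend (1.76% of probes, 0.959% rising and 0.804% falling) or by the smooth curve (1.72%). The steepest horizontal slope was that of Cx3cr1, 0.105 ± 0.0281 log2 per fraction (SE), with an adjusted p of 0.119. The smooth horizontal test of Tmem119 had an adjusted p of 0.0740 for a curve spanning 1.66.

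**Figure D2:**
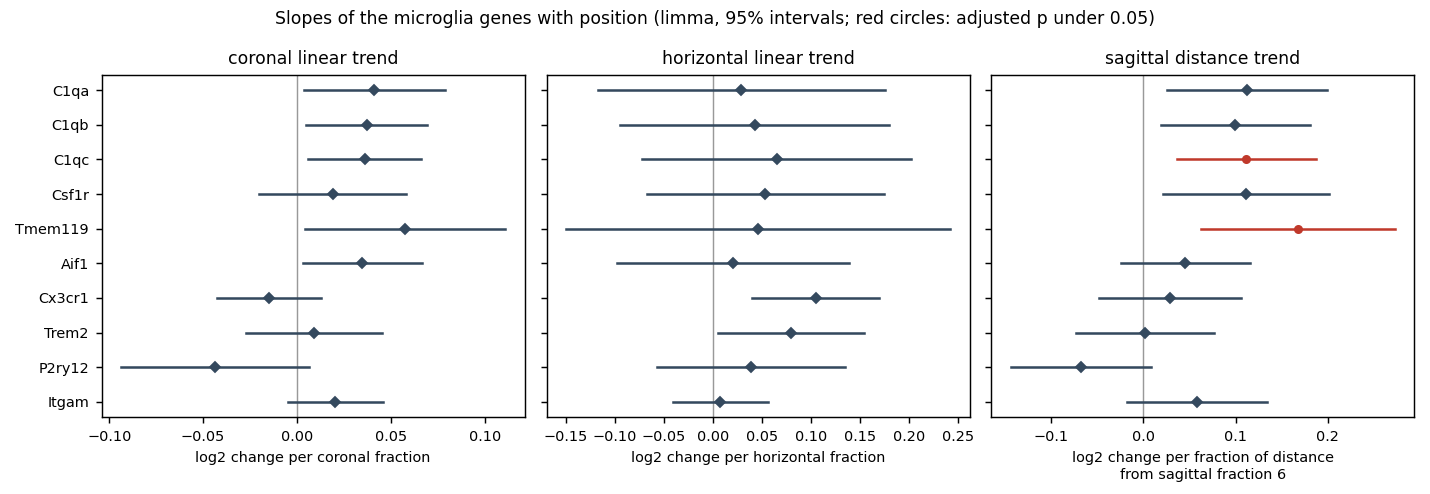
Slopes of the 10 genes with position from limma, in log2 change per fraction (x axes) for each gene (y axis), with points for the estimate and bars for the 95% interval. Circles in red mark an adjusted p under 0.05, reached by C1qc and Tmem119 for the distance from sagittal fraction 6 and by none of the genes for the coronal and horizontal trends.

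In the sagittal series signals were set against the distance from fraction 6, taken here as the middle. Tmem119 rose by 0.168 ± 0.0476 log2 per fraction of distance (SE, adjusted p = 0.0232) and C1qc by 0.112 ± 0.0341 (adjusted p = 0.0315), which made 2 of 10 genes called, beside 28.3% of all probes, 18.3% called as rising and 9.97% as falling. C1qa, C1qb and Csf1r had slopes of 0.113, 0.0998 and 0.111 with adjusted p-values of 0.0529, 0.0628 and 0.0642. The other 2 probes of Csf1r were called, at 0.167 and 0.0725 log2 per fraction (adjusted p = 0.0241 and 0.0380). The slopes of Cx3cr1, Trem2 and Aif1 were 0.0294, 0.00174 and 0.0457, and that of P2ry12 was -0.0677 (adjusted p = 0.168). The number called rested on single fractions: it was 0 without fraction 1 or fraction 7, 5 without fraction 2 or fraction 6, 4 without fraction 10, and 1 without fraction 5 (Tmem119) or fraction 11 (P2ry12). It was 0 without both ends and 0 with slide as a block, where the slope of Tmem119 was 0.110 ± 0.0695. Scaling to the array median, which raised the sagittal ends by 0.108 relative to the inner fractions, gave 6 genes, with 82.4% of all calls rising in place of 64.7%. The smooth sagittal curve called 0 of 10 genes (15.7% of probes), and the lowest adjusted p was that of Tmem119, at 0.0799.

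**Figure D3:**
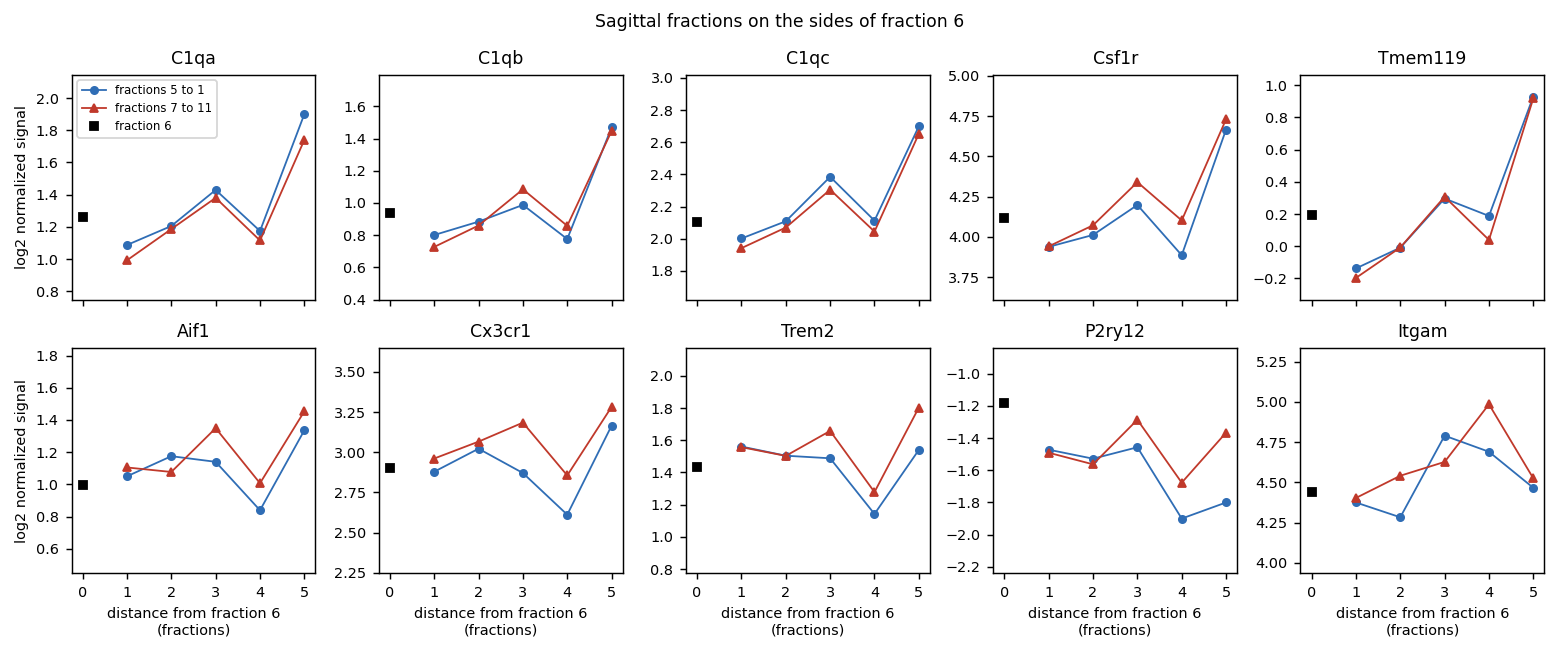
Log2 normalized signal (y axis) against the distance from sagittal fraction 6 (x axis) for each gene, with circles for fractions 5 to 1, triangles for fractions 7 to 11 and a square for fraction 6, all panels spanning the same log2 range. The 2 sides lie closest together for C1qc, C1qb and Tmem119, and fractions 7 to 11 run above fractions 5 to 1 for Cx3cr1.

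The sides of the sagittal series were the nearest thing to a repeat. With fraction 6 as the middle, fractions 1 and 11, 2 and 10 and so on form 5 mirror pairs, whose differences gave an error SD per fraction of 0.0430 for C1qc, 0.0477 for C1qb, 0.0508 for Tmem119 and 0.0639 for C1qa, against SDs over the 11 fractions of 0.258, 0.254, 0.380 and 0.281. For Csf1r the values were 0.0861 and 0.286. The error was nearer to the spread for Cx3cr1 (0.134 against 0.188), Itgam (0.136 against 0.204) and P2ry12 (0.164 against 0.212). The same held for Trem2 (0.108 against 0.175) and Aif1 (0.0994 against 0.180). Less of the spread of all these genes thus repeated between the sides. No gene was called between the sides after adjustment, nor was any of the 34186 probes, of which 3263 had an unadjusted p under 0.05. Cx3cr1 was higher in fractions 7 to 11 in 5 of 5 pairs, by 0.160 ± 0.114 (SD of the pairs, limma adjusted p = 0.518), but its second probe differed by 0.0097 ± 0.104. Csf1r was also higher there in 5 of 5 pairs, by 0.0969 ± 0.0824 (limma adjusted p = 0.588). Its probes A_55_P2025073 and A_52_P602091 differed the other way, by -0.0858 ± 0.111 and -0.0270 ± 0.0973. C1qa and C1qc were lower in 5 of 5, by -0.0762 ± 0.0542 and -0.0590 ± 0.0163, with limma adjusted p-values of 0.619 and 0.658.

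**Figure D4:**
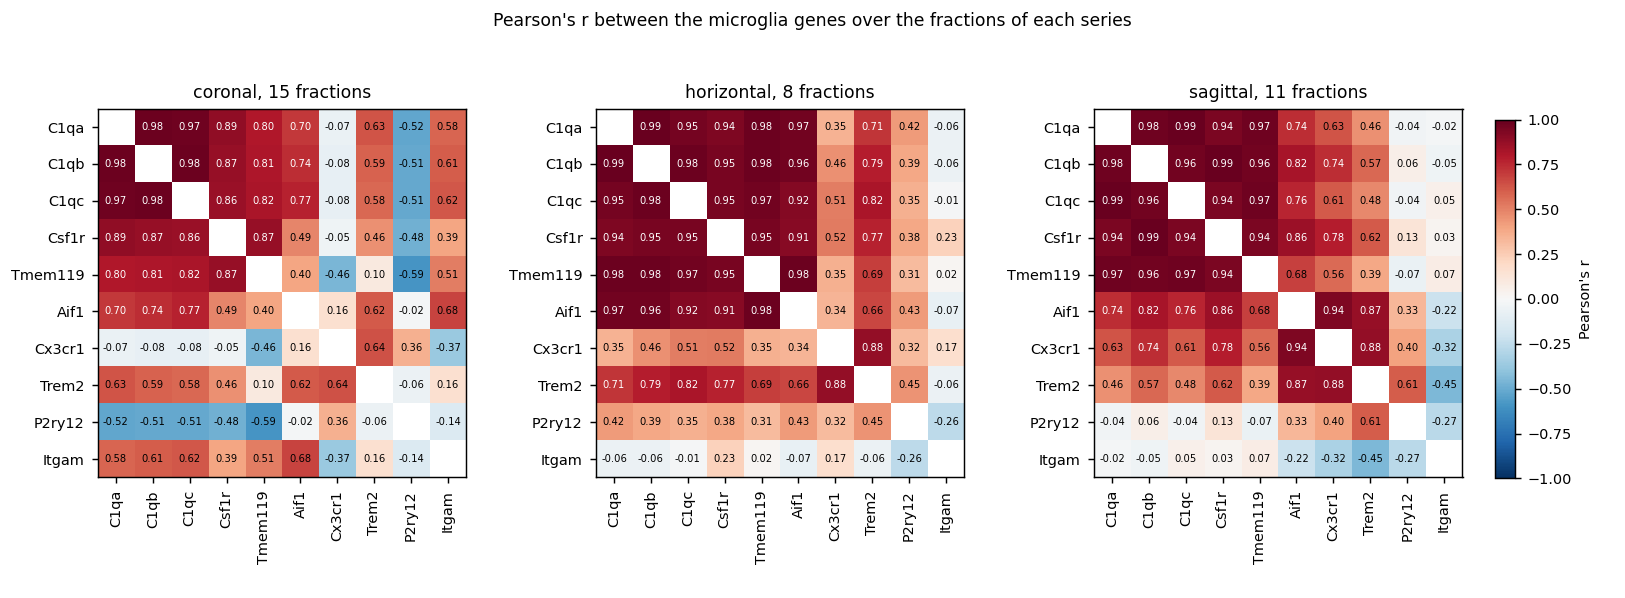
Pearson's r between the log2 normalized signals of each pair of genes over the fractions of the coronal, horizontal and sagittal series, with the scale from -1 (blue) to 1 (red) and r printed in each cell. The block of C1qa, C1qb, C1qc, Csf1r and Tmem119 is at 0.80 or above in each series, and the row of P2ry12 is negative with these 5 genes in the coronal series.

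How far the genes moved together was measured by Pearson's r within each series. Neighbouring fractions of 1 brain and shared array scaling underlie every r, so r is given as a description without a p. The median r over the 45 pairs of the 10 genes was 0.51 over the 15 coronal fractions, 0.52 over the 8 horizontal and 0.61 over the 11 sagittal, where the median over all pairs of the 34186 probes was 0.026, 0.026 and 0.012. An r of at least 0.7 was reached by 13, 20 and 19 of the 45 pairs, against 4.52%, 6.43% and 5.63% of all pairs, and 14, 6 and 9 pairs were below 0. Within the coronal slides the median r was 0.16 over the 8 fractions of one slide and 0.63 over the 6 of the other. It was 0.65 over the 6 horizontal fractions of one slide and 0.60 over the 8 sagittal fractions of one slide. Leaving out single fractions moved the median r to between 0.34 and 0.59 in the coronal series, 0.26 and 0.85 in the horizontal and 0.45 and 0.69 in the sagittal. The extremes came without coronal fractions 15 and 14, horizontal fractions 8 and 1, and sagittal fractions 11 and 2.

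The C1q genes were the tightest set. Their pairs had an r of 0.97 to 0.98 in the coronal, 0.95 to 0.99 in the horizontal and 0.96 to 0.99 in the sagittal series, and the median of these pairs was at least 0.945 without any single fraction and at least 0.895 within each slide. With both ends left out the median was 0.955, 0.925 and 0.905. With Csf1r and Tmem119 added, a set picked after r was seen, the lowest r of the 10 pairs was 0.80, 0.94 and 0.94. Csf1r with C1qb reached 0.99 in the sagittal series, and Tmem119 with C1qb 0.98 in the horizontal.

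Cx3cr1 and Trem2 formed a second pair, with an r of 0.64, 0.88 and 0.88. The coronal value rested on few fractions: without the 2 fractions in which Cx3cr1 lay farthest from its median it was 0.07, and the horizontal and sagittal values became 0.45 and 0.63. Aif1 had an r with Cx3cr1 of 0.94 in the sagittal series but of 0.16 in the coronal and 0.34 in the horizontal. With C1qa, Cx3cr1 had an r of -0.07 in the coronal, 0.35 in the horizontal and 0.63 in the sagittal series.

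P2ry12 had an r between -0.59 and -0.48 with the C1q genes, Csf1r and Tmem119 in the coronal series, between 0.31 and 0.42 in the horizontal and between -0.07 and 0.13 in the sagittal. The median r of Itgam with the other genes was 0.51, -0.06 and -0.05. The probes that stand for the 10 genes, all used to mark 1 cell type, thus did not share 1 profile over the fractions. The probes of Itgam and those of Cx3cr1 also differed among themselves, P2ry12 has 1 probe, and each position has 1 array. For these genes, differences between genes and between probes therefore cannot be told apart.

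Other genes of microglia were described from a list of 30, of which 29 were matched to a probe and 22 were detected in all 34 fractions. The mean profile of these 22, each put in SD units within a series, had an r with that of the 10 genes of 0.97, 0.98 and 0.93. Single genes were less alike: 7, 13 and 10 of the 22 had an r of at least 0.7 with the 10 genes' profile, and 3, 4 and 7 were below 0. The share of all probes with such an r in a single series is not given here, so these counts only describe the list. Fcer1g, which encodes a signalling chain of Fc receptors, had an r of 0.90, 0.92 and 0.89, and Tyrobp, the signalling partner of Trem2, one of 0.86, 0.85 and 0.93. Sall1, a transcription factor of microglia that neural progenitors also use, rose along the coronal series by 0.121 ± 0.0282 log2 per fraction (adjusted p = 0.00571) and fell with sagittal distance by 0.170 ± 0.0441 (adjusted p = 0.0159). Of the 29 genes, 17 were called by the smooth coronal test (60.4% of all probes), 0 by the horizontal (1.72%) and 3 by the sagittal (15.7%), and with sagittal distance 4 rose (18.3%) and 4 fell (9.97%), so that none of these counts stood far from the share of all probes.

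Of the 8 genes for signals to microglia, all 8 were called by the smooth coronal test, 0 by the horizontal and 2 by the sagittal, beside 60.4%, 1.72% and 15.7% of all probes. Il34 rose with sagittal distance by 0.283 ± 0.0467 log2 per fraction (adjusted p = 0.0018), with 1.72 and 1.71 at the ends against an inner median of 0.43, and Tgfb1, whose product keeps microglia in their adult state, rose too (0.127 ± 0.0376, adjusted p = 0.0276). Tgfb2 fell with sagittal distance (-0.151 ± 0.0401, adjusted p = 0.0177). Il34 and Csf1, the genes for both ligands of the Csf1r receptor, had an r with the 10 genes' profile of 0.54 and 0.09 in the coronal series, 0.76 and 0.88 in the horizontal and 0.80 and 0.71 in the sagittal. Cx3cl1, the gene for the ligand of Cx3cr1, had one of -0.61, 0.42 and 0.13, and Cd200, a neuronal restraint on microglia, one of -0.62, 0.06 and -0.26.

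Of 17 other genes of the complement system or with a C1q-like domain, 13 were called by the smooth coronal test, 1 by the horizontal and 7 by the sagittal, beside the same 60.4%, 1.72% and 15.7% of all probes. None of the 11 detected in all fractions reached an r of 0.7 with the 10 genes' profile in the coronal or sagittal series, again without a share of all probes to set beside it. Serping1, the inhibitor of the C1 complex, was at 2.52 and 2.96 at the coronal ends against an inner median of 0.99. C1ql2, a synaptic protein that shares a domain with C1q and was detected in 8 of 11 sagittal fractions, fell with sagittal distance by 0.691 ± 0.111 log2 per fraction (adjusted p = 0.0016). Of 16 genes of activated or axon tract microglia, 11, 3 and 3 were called by the smooth tests (60.4%, 1.72% and 15.7% of all probes), and 4 rose and 3 fell with sagittal distance (18.3% and 9.97%). Spp1, which such microglia secrete, was highest in horizontal fraction 8 at 0.88, with an inner median of -1.30. Lyz2 and Cd52, genes of myeloid cells at large, had an r with the 10 genes' profile of 0.79 and 0.79 in the coronal, 0.67 and 0.99 in the horizontal and 0.67 and 0.69 in the sagittal series.

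**Figure D5:**
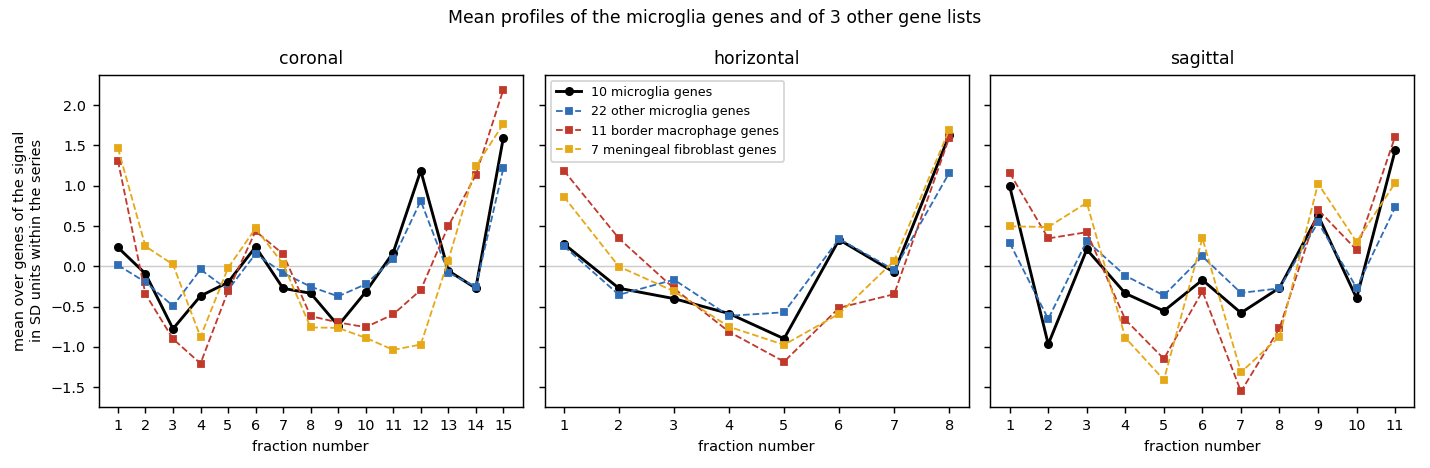
Mean over genes of the log2 normalized signal in SD units within each series (y axis) by fraction number (x axis), for the 10 microglia genes, 22 other microglia genes, 11 border macrophage genes and 7 meningeal fibroblast genes. The profiles of the 10 microglia genes and of both other cell types are highest in coronal fraction 15, where the microglia genes are at 1.596, but in coronal fraction 1 the microglia genes are at 0.234 against 1.31 and 1.47, and in coronal fraction 12 at 1.19 against -0.29 and -0.97. Coronal fraction 12 is the only coronal fraction on its slide.

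Genes of other cell types moved with the ends as well. All 11 border macrophage genes detected in every fraction, of 13 matched, were above the inner median in both ends of each series (34.8%, 30.4% and 44.2% of all probes). Their median excess was 1.35, 1.36 and 1.02 on the log2 scale. The excess of the 10 microglia genes was 0.43, 0.62 and 0.45. The summed linear level of the 13 ran from 10.8 to 52.5 in the coronal, 9.86 to 40.1 in the horizontal and 9.17 to 33.3 in the sagittal series, with the highest sum in coronal fraction 15, horizontal fraction 8 and sagittal fraction 11. Pf4 was at 3.62 and 4.40 at the coronal ends against an inner median of 2.54. Cd163 was detected in 2 coronal, 1 horizontal and 0 sagittal fractions and Siglec1 in 3, 1 and 2. With sagittal distance 12 of the 12 tested border macrophage genes rose (18.3% of all probes), and by the smooth tests 9, 6 and 8 were called (60.4%, 1.72% and 15.7%). The r of single microglia genes with the border macrophage profile was highest for Tmem119, at 0.90, 0.96 and 0.91, and was 0.67, 0.94 and 0.84 for C1qa, -0.44, 0.12 and 0.39 for Cx3cr1 and -0.41, 0.27 and -0.10 for P2ry12. With other cell types the r of Tmem119 was 0.92, -0.13 and 0.91 for the erythroid profile and 0.78, 0.965 and 0.73 for the meningeal. It was 0.84, 0.70 and 0.92 for the endothelial profile. Within each single series another profile was thus as close to Tmem119 as that of border macrophages, but none of these was so in all 3. In coronal fraction 12, where C1qa, Cx3cr1 and Trem2 peaked within the inner fractions, the border macrophage profile was at -0.29 SD units and the meningeal profile at -0.97, while the 10 genes were at 1.19 and the 22 other microglia genes at 0.81. That fraction was the only coronal one on its slide, so these values cannot be told apart from that slide.

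All 7 meningeal fibroblast genes were above the inner median in both ends of the coronal and horizontal series, by medians of 1.45 and 1.26, and 4 of 7 in the sagittal, by 0.26. The shares of all probes with both ends above the inner median were 34.8%, 30.4% and 44.2% in the coronal, horizontal and sagittal series. Their summed level ran from 46.6 to 229.6 in the coronal, 65.2 to 253.8 in the horizontal and 51.0 to 113.6 in the sagittal series. The 5 erythroid genes detected in every fraction were raised at both ends in the coronal and sagittal series (medians 1.76 and 1.34) and 0 of 5 were in the horizontal. The summed level of the erythroid list ran from 7.10 to 37.7, 20.1 to 64.5 and 5.68 to 27.5. Of the endothelial genes 5, 7 and 7 of 8 were raised at both ends, beside the same shares of all probes, with summed levels of 35.05 to 68.2, 34.4 to 64.5 and 35.05 to 57.3. Of 9 matched genes of blood myeloid cells 5 were detected in every fraction. Among these, 4, 2 and 2 were raised at both ends, near the share of all probes in the horizontal and sagittal series. The summed levels of all 9 ran from 1.55 to 2.48, 1.81 to 7.60 and 1.67 to 2.60, and Ccr2 was not detected. The profiles of 7 neuron, 8 astrocyte and 7 oligodendrocyte genes had an r with that of the 10 genes of -0.15, -0.19 and -0.19 in the coronal series, -0.09, 0.50 and 0.32 in the horizontal and 0.38, 0.06 and -0.16 in the sagittal. Over the coronal, horizontal and sagittal series P2ry12 had an r of 0.26, 0.53 and 0.84 with the astrocyte profile. It was 0.15, 0.10 and 0.67 with the oligodendrocyte and 0.26, -0.75 and -0.43 with the neuron profile. With sagittal distance 4 of 8 neuron genes rose and 2 fell, 1 of 8 astrocyte genes fell and 5 of 8 oligodendrocyte genes fell, beside 18.3% of all probes rising and 9.97% falling. The summed levels over the coronal, horizontal and sagittal series ran from 366.8 to 656.7, 450.7 to 589.2 and 431.5 to 650.9 for the neuron genes, from 150.1 to 408.5, 144.9 to 259.96 and 150.2 to 241.5 for the astrocyte genes and from 19.2 to 103.99, 19.9 to 49.2 and 18.3 to 44.2 for the oligodendrocyte genes. The part of these cell types in the levels of the 10 genes was not tested.

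Outside the 10 genes, the probes closest to their mean profile were found by the smallest r of the 3 series among 20958 probes with a gene name. The r was at least 0.7 in every series for 69 of them and at least 0.85 for 8. The closest was Rac2, which encodes a GTPase, at 0.94, 0.98 and 0.97, followed by the nucleotide receptor P2ry6 (smallest r 0.91), Cyth4 (0.90), Pld4 (0.90) and Vav1 (0.90). Fcer1g, Ptpn6 and Tyrobp completed the 8. Of the 15 closest, 3 were on the list of other microglia genes and 0 on that of border macrophage genes. By the same measure the nearest gene to Tmem119 was Unc93b1 (0.95), to C1qc Fcer1g (0.97), to Csf1r Ptpn6 (0.92), to Aif1 P2ry6 (0.80), to Cx3cr1 Crybb1 (0.78), to Trem2 Cryba4 (0.87) and to P2ry12 Tmem196 (0.74). C1qa and C1qb were nearest to each other (0.98). The Itgam probe A_55_P1977934 was nearest to Proser3, at 0.97, 0.995 and 0.98, while its r with the other probes of Itgam was at most 0.0952.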

How the data were processed

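Each of the 34 fractions was hybridised to a single-colour Agilent array, and per the file headers the deposited intensity of each spot is the processed signal of Feature Extraction 10.10.1.1, corrected for background and not scaled between arrays. A second table by the authors gives log2 values of 43199 probes, and 99.9% of them lay within 0.02 of the values used here. Spots of a probe were averaged without flagged spots and put on the log2 scale relative to the 75th percentile of their array. Detection of a probe required the flag for signal well above background in the majority of its spots.

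Trends and smooth curves (natural splines with 3 degrees of freedom) over fraction number were fitted with limma 3.58.1 in R 4.3.3 to the 34186 probes that had a detected value in every series, with Benjamini-Hochberg adjustment, after the code was tested on simulated data. Other steps used pandas 2.3.3, scipy 1.17.1 and numpy 2.4.6 under Python 3.11.15. P-values compare positions within 1 mouse, neighbouring fractions are not independent, and the number of arrays limits the precision.

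The 10 genes and the other lists were chosen with earlier results of these data known. For a gene with several probes, the one detected in most fractions, then with the higher median signal, stood for it. Beside the 10 genes, the rule named for each list up to 4 called genes with the largest coronal slope, the 15 probes closest to the mean profile and the probe nearest to each gene. Il34, Csf1, Cx3cl1, Cd200, Tgfb1, Serping1, Spp1, Lyz2 and Pf4 were named after their values were seen. The alternatives were other scalings, background correction (normexp, offset 50, on the median signal), detection rules, moderation, slide as a block, cut positions and fractions left out. Leaving out single fractions for the smooth curves and for r was chosen after seeing the data. Single genes of the erythroid and brain region lists are not reported here.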

Additional observations from a re-analysis of the deposited data

Results flagged for a closer look

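Among 30 groups of values of the 15 probes, the horizontal series and the mirror differences, 2 held a value farther from the rest than Dixon's 95% limit allows, where chance flags about 1 in 20 groups. C1qc was at 3.09 in horizontal fraction 8, apart from the other 7 horizontal fractions by 0.532 of the whole range. C1qa, C1qb, Csf1r and Tmem119 were highest in the same fraction. The Itgam probe A_55_P1977926 was higher in sagittal fraction 11 than in fraction 1 by 0.8 on the log2 scale, apart from the other 4 mirror differences by 0.776 of the range. That probe was detected in 7 of 11 sagittal fractions.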

How the results depend on the processing

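Of the single results for the 10 genes under other settings, 670 kept their side of the threshold and direction, 25 passed the threshold only under the alternative, 15 passed it only in the values reported, and 0 reversed. The number of genes rising with sagittal distance, 2 as reported, was 6 with array median scaling, 5 with normexp, limma-trend or cut centres, 1 with quantile normalization, no detection filter or the weaker detection flag, and 0 with slide as a block or without the end fractions. Leaving out single fractions gave 0 to 5. Of all calls, 82.4% rose with array median scaling, 82.3% with normexp and 55.8% with quantile normalization, against 64.7%. For the coronal trend these shares were 60.3%, 78.8% and 53.0% against 66.6%, with 80.6% without the detection filter and 113 of 251 calls rising, a majority falling, with slide as a block. For the horizontal trend the share was 54.4%, with 44.9% with slide as a block, 44.8% without slide 5 and 72.2% without the ends as the farthest values. The coronal trend called 1 gene in place of 0 without the end fractions, and 0 to 4 without single fractions. The coronal smooth curve called 1 in place of 6 without the end fractions, and 2 to 7 without single fractions. The horizontal smooth curve called 4 with normexp and 2 with limma-trend in place of 0. The sagittal smooth curve called 1 in place of 0 with array median scaling, normexp, limma-trend or cut centres, and 0 to 1 without single fractions, the 1 being Tmem119 without fraction 10. The median r of the 10 genes was 0.283 in the coronal series without the ends, and in the sagittal series 0.418 as Spearman's rho and 0.43 without slide 5. That of the C1q genes was 0.943 (rho) and 0.955 (without ends) in the coronal, 0.925 (without ends) in the horizontal, and 0.936 (rho), 0.905 (without ends) and 0.957 (residuals from a trend) in the sagittal series. Without single horizontal fractions it lay between 0.945 and 0.985. The cause of these shifts was not tested. No paired analysis was possible because the fraction numbers shared by the coronal, horizontal and sagittal series mark different positions in different mice. The mirror pairs lie within the sagittal series and pair no samples across series.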
